A study of Mus musculus with 8 samples.

Results

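The genes described here were 6 metabotropic glutamate receptor genes, Grm2, Grm3, Grm4, Grm5, Grm7 and Grm8, chosen by name among the 22430 genes listed in the count table. All 6 passed the filter on low counts, as did 16730 genes in all. The samples were brains of male C57Bl/6JRj mice for which no transgene or treatment is named, with 4 animals aged 6 months (6m, young adults) and 4 aged 24 months (24m, old). The sample titles name the tissue as whole brain and the extraction protocol as a brain hemisphere, and 1 library of polyadenylated RNA was sequenced from each animal. The question was which transcripts differed in level between the ages.

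Metabotropic glutamate receptors are G protein-coupled receptors that bind the transmitter glutamate and work more slowly than glutamate-gated ion channels. Group I receptors, among them mGlu5 (encoded by Grm5), couple to Gq, which drives phospholipase C and calcium release, and sit mostly on the postsynaptic side of synapses. Group II receptors (mGlu2 and mGlu3, from Grm2 and Grm3) and group III receptors (among them mGlu4, mGlu7 and mGlu8) couple to Gi/o, which lowers cyclic AMP, and many of them sit on nerve terminals, where they reduce transmitter release.

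The genes differed widely in size and base composition. In GRCm39 Grm5 (ENSMUSG00000049583) lies on the plus strand at chr7:87233376-87784594. Grm2 (ENSMUSG00000023192) lies on the minus strand at chr9:106520294-106533870 and spans 13.6 kb, the shortest stretch of the 6 genes. Grm3 (ENSMUSG00000003974) lies on the minus strand at chr5:9534069-9776088. Grm4 (ENSMUSG00000063239) lies on the minus strand at chr17:27641361-27740377. Grm7 (ENSMUSG00000056755) lies on the plus strand at chr6:110622542-111544191 and spans 922 kb, the longest stretch of the 6. Grm8 (ENSMUSG00000024211) lies on the minus strand of the same chromosome at chr6:27275118-28135177. The exons of Grm4 and Grm2 were rich in G and C (60.9% and 56.9%, above 97.9% and 89.5% of the genes tested), whereas those of Grm5 were poor in them (41.8%, above 11% of the genes). Exons of Grm2, Grm4, Grm7 and Grm8 shared 475, 135, 600 and 221 bases with genes annotated on the opposite strand, those of Grm3 and Grm5 shared none, and no overlapping gene was a line of the table.

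The sequence before the start site was at hand for 4 of the 6 genes, in RefSeq windows of 300 bases (250 before and 50 after a start) from a table built on GRCm38.p6, and each window was matched without a mismatch to GRCm39. The stretches of 30 bases below are shown because the 4 genes, whose levels moved differently with age, all hold the letters GGGCGG there, the core of a GC box, printed in capitals. Each is written 5′ to 3′ on the strand of its gene. The Grm2 stretch is chr9:106533320-106533349 (minus strand), with the box 29 bases before the start of the window's transcript. The Grm3 stretch is chr5:9775353-9775382 (minus), with the box 6 bases before the start. The Grm7 stretch is chr6:110622398-110622427 (plus), with the box 149 bases before the start. The Grm8 stretch is chr6:28135184-28135213 (minus), with the box 56 bases before the start.
Grm2: ggtcggggccggGGGCGGggcaggctgcga
Grm3: cgggcagtggtccagcgcgcagccGGGCGG
Grm7: aaccggtggggaGGGCGGgcgctgggaagg
Grm8: gtgaatggccgcGGGCGGagggtcgggagg
GGGCGG, searched on both strands, was found in 35.7% of all 32851 windows, CCAAT in 37.4% and TATAAA in 13.6%. The windows of Grm2 and Grm8 also held CCAAT, and none of the 4 held TATAAA. Where a gene had several windows, the one whose start lies nearest to that of the annotated gene is described. The windows of Grm2, Grm3, Grm7 and Grm8 held 22, 11, 15 and 33 CG dinucleotides, against a median of 7 over all windows. A second Grm7 window, which holds the same GGGCGG, had 10, and both further Grm8 windows, with 10 and 2, lacked GGGCGG, while CCAAT was in the former. These matches describe the letters of the windows alone. Grm4 and Grm5 are named without a window.

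Totals per library ranged from 63460940 to 103462414 counts, and the deepest was 24m replicate 1. That library stood apart from the others of its age: the deviation of genes from their mean correlated with log2 exon length across 13970 genes at r = -0.13 in it, at 0.41 to 0.47 in the other 24m libraries and at -0.42 to -0.35 in the 6m libraries (genes are not independent replicates). Its r with exon GC content was 0.26, against -0.33 to -0.13 in the other 24m libraries and 0.04 to 0.36 at 6m. Results below are therefore given without it where that matters, and the part of these trends in the results was not tested beyond the offsets described with each gene. The labelled tissue was checked by its markers: every neuron, astrocyte and oligodendrocyte precursor marker listed was detected in each of the 8 libraries, at 1.15 CPM or more.

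Across the 6 genes, 3 were higher at 24m (Grm5, Grm3 and Grm7) and none was lower, where a gene was called if edgeR's quasi-likelihood test gave an adjusted p up to 0.05 and its log2 fold change reached 0.58 in size. Over all genes tested the same rule called 43.6%, with 25.3% higher and 18.3% lower, so 3 of 6 genes (50%) is a share near that background. By the adjusted p alone 4 of the 6 genes passed, all of them higher, beside 62.6% of all genes (32.7% higher). The median log2 fold change of the 6 genes was 0.68 and that of all genes was -0.0034. With an offset for exon length these medians were 0.38 and -0.029. The 24m libraries lay above all 6m libraries for the same 3 genes, a pattern held by 28.4% of the genes tested, and 55.2% of them had ages that did not overlap in either direction. Since these are brain homogenates, a lower level can come from fewer cells of a type or from less RNA per cell, and a higher level from more of either, which cannot be told apart here.

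**Figure D1:**
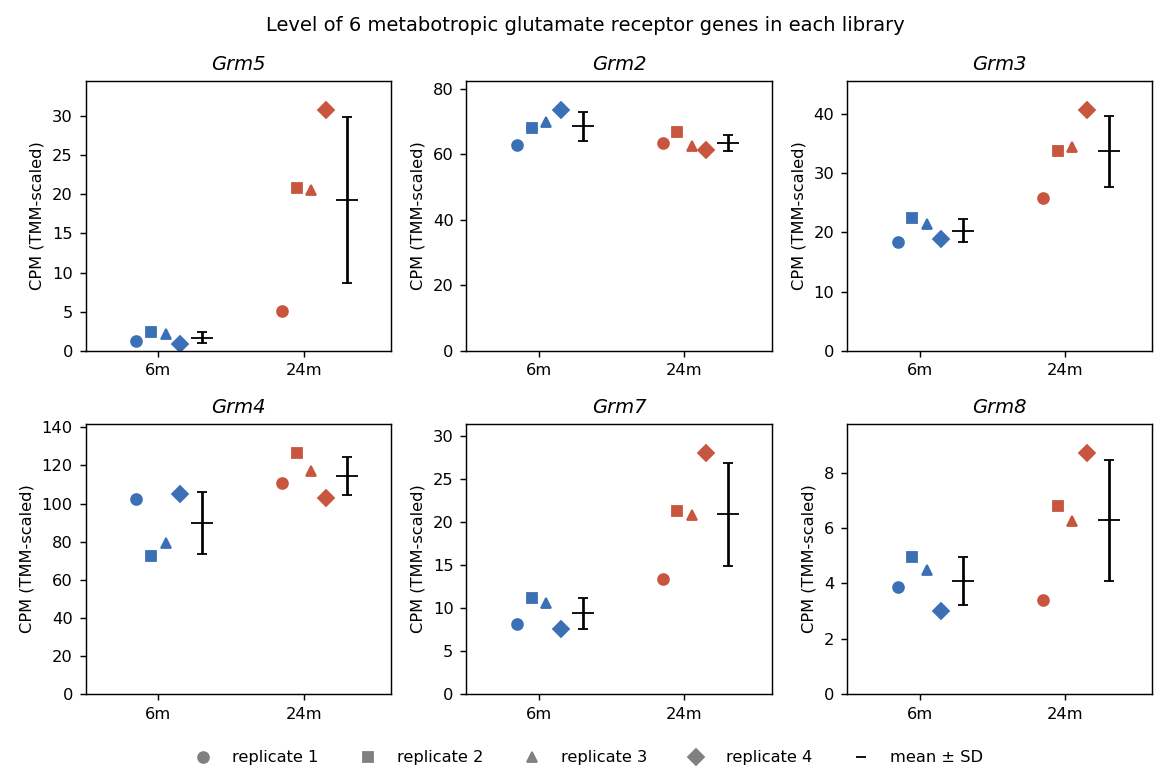
Level of each receptor gene in every library, in CPM on linear axes that start at 0, with 4 libraries at 6m (blue) and 4 at 24m (red), marker shapes for replicates, and bars for mean ± SD. The ages are separate for Grm5, Grm3 and Grm7 and overlap for Grm2, Grm4 and Grm8, and 24m replicate 1 holds the lowest 24m value for Grm5 (5.13), Grm3, Grm7 and Grm8.

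Grm5, the group I receptor gene among the 6, had the largest log2 fold change of them. Levels are given in CPM, counts per 1000000 counts of the library after scaling by TMM factors. The 6m libraries had 1.30, 2.40, 2.11 and 0.878 CPM in replicates 1 to 4, from 85, 170, 127 and 58 counts. The 24m libraries had 5.13, 20.8, 20.5 and 30.8 CPM, from 532, 1664, 1710 and 2686 counts. Every 24m library lay above every 6m library, and 24m replicate 1 lay much closer to the young animals than the other aged ones did. The mean was 1.67 ± 0.707 CPM at 6m and 19.3 ± 10.6 CPM at 24m (SD, n = 4 each). The log2 fold change was 3.53 ± 0.52 (SE, 95% interval 2.36 to 4.70), 11.5-fold, with an adjusted p of 0.000425 in edgeR's test. Among the 16730 genes tested it ranked 17 by log2 fold change. It was called under each of the 20 alternatives run, with values of 2.95 to 3.86.

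Group II held a gene whose level barely moved and a gene that was higher at 24m. Grm2 encodes mGlu2, a receptor mainly of nerve terminals. Grm2 was at 62.8, 68.0, 69.8 and 73.6 CPM at 6m and at 63.5, 66.9, 62.5 and 61.2 CPM at 24m. The aged libraries lay within or just below the range of the young ones, with overlap. Means were 68.5 ± 4.5 and 63.5 ± 2.42 CPM (SD, n = 4 each), and the log2 fold change was -0.11 ± 0.08 (95% interval -0.28 to 0.06) with an adjusted p of 0.235 in edgeR's test. That interval holds no change as large as the fold threshold, but the sign of the small difference turned positive with library totals alone as the scaling (0.11) and with an offset for GC content (0.061). With an offset for exon length it was larger and negative (-0.32, adjusted p 0.00701 in edgeR's test), still short of the fold threshold.

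Grm3 encodes mGlu3, found on astrocytes as well as on neurons. Its level was 18.3, 22.5, 21.4 and 18.9 CPM at 6m and 25.9, 33.7, 34.4 and 40.7 CPM at 24m. All aged libraries lay above all young ones, the lowest of them again being 24m replicate 1. Means were 20.3 ± 1.97 and 33.7 ± 6.08 CPM (SD, n = 4 each), and the log2 fold change of 0.73 ± 0.14 was a 1.66-fold rise with an adjusted p of 0.00148 in edgeR's test. It stayed under the adjusted p threshold but fell just short of the fold threshold with an offset for exon length (0.54) or for GC content (0.56). The astrocyte markers listed moved with it in part: 8 of 12 were higher and 1 was lower, beside 25.3% and 18.3% of all genes. Their log2 fold changes had a median of 0.75. Their summed level ran from 3250 to 4180 CPM at 6m and from 3360 to 4280 CPM at 24m. Most of that sum came from 1 gene, Aldoc (singled out after its values were seen), which was at 2507 ± 356 CPM at 6m and 2056 ± 397 CPM at 24m (SD, n = 4 each) and was not called (log2 fold change -0.29 ± 0.15, adjusted p 0.129 in edgeR's test). Neuron markers counted 1 of 10 higher and 1 lower (20% called, beside 43.6% of all genes). Their sums were 5240 to 5530 CPM at 6m and 5790 to 6040 CPM at 24m. The part of either cell type in the Grm3 result was not tested.

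Group III, whose products dampen release at many terminals, held 1 gene that was higher and 2 that were not called. Grm4 encodes mGlu4, which is abundant in cerebellar granule cells. Grm4 was at 102, 72.7, 79.3 and 105 CPM at 6m and at 111, 126, 117 and 102.9 CPM at 24m. Replicates 2 and 3 of the young animals were low, and the highest young library lay above the lowest aged one, so the ages overlapped. Means were 89.8 ± 16.2 and 114 ± 9.94 CPM (SD, n = 4 each). The log2 fold change was 0.35 ± 0.13 (95% interval 0.06 to 0.64), 1.27-fold, and its adjusted p of 0.04 in edgeR's test passed while the fold did not. That pass was lost in 4 of the 8 fits that left out a library (6m replicate 2 or 3, 24m replicate 2 or 3), in which the adjusted p ran from 0.0846 to 0.11. An offset for GC content, in which Grm4 is extreme, brought it to 0.60 with an adjusted p of 0.00111, past both thresholds, whereas an offset for exon length gave 0.16 with an adjusted p of 0.35. Among cerebellar granule cell markers 7 of 10 were higher, beside 25.3% of all genes tested. None was called lower, though 2 of the 10 passed the adjusted p alone in that direction. The 10 markers had a median log2 fold change of 0.96. They had sums of 500 to 644 CPM at 6m and 598 to 671 CPM at 24m. Their part in the Grm4 values was not tested.

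Grm7 encodes mGlu7, a receptor of the active zone of terminals with low affinity for glutamate. Its level was 8.11, 11.2, 10.6 and 7.59 CPM at 6m and 13.4, 21.3, 20.9 and 28.1 CPM at 24m. The ages were separate, with 24m replicate 1 lowest and 24m replicate 4 highest among the aged animals. Means were 9.38 ± 1.8 and 20.9 ± 6 CPM (SD, n = 4 each), and the log2 fold change was 1.16 ± 0.22 (95% interval 0.67 to 1.65), a 2.23-fold rise with an adjusted p of 0.00151 in edgeR's test. It was called under each of the 20 alternatives run, with values of 0.92 to 1.38.

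Grm8 encodes mGlu8, another presynaptic receptor. It was at 3.86, 4.96, 4.49 and 2.98 CPM at 6m and at 3.41, 6.78, 6.24 and 8.70 CPM at 24m. Replicates 2 to 4 of the aged animals lay above all young ones, and 24m replicate 1 lay among them. Means were 4.07 ± 0.859 and 6.28 ± 2.19 CPM (SD, n = 4 each), and the log2 fold change of 0.62 ± 0.27 (95% interval 0.03 to 1.22) had an adjusted p of 0.0654 in edgeR's test, so Grm8 was not called. Without 24m replicate 1 the value was 0.85 with an adjusted p of 0.00179, and 4 of the 6 genes were called higher, against 28.2% of all genes tested in that fit. With an offset for exon length, of which Grm8 has much (above 81.2% of the genes), the value was 0.22 with an adjusted p of 0.376, and it was 0.39 (adjusted p 0.131) with a GC offset.

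**Figure D2:**
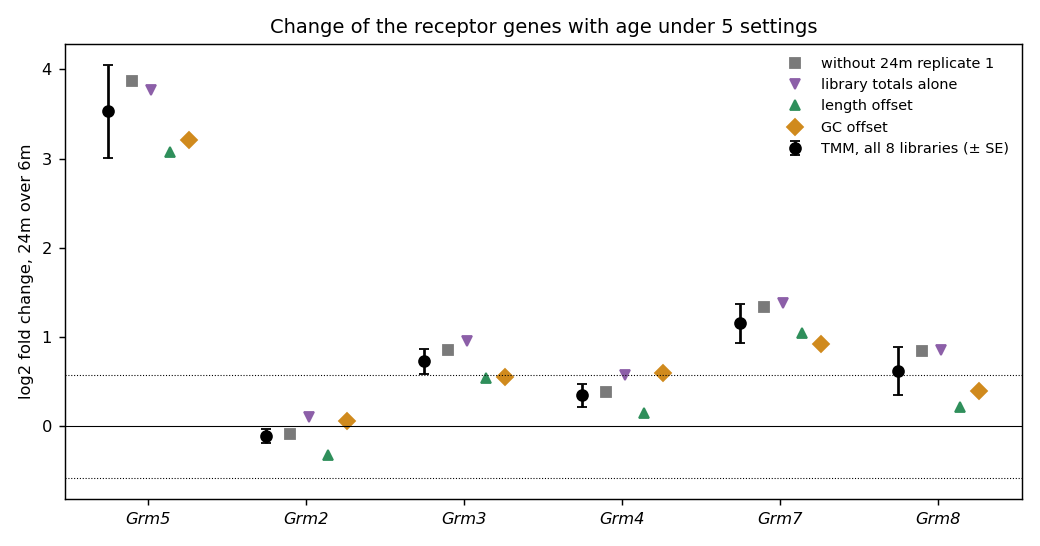
Log2 fold change at 24m against 6m of each receptor gene with TMM scaling (black, bars ± SE) and under 4 alternatives (colours), with dotted lines at the fold threshold of 0.58 in either direction. Grm5 and Grm7 lie above the upper line in all 5 settings, Grm3 (0.73) falls just below it with the length and GC offsets, and Grm2 lies on both sides of 0.

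Levels of different genes were compared per length, as RPKM, which is CPM over the union of the exons in kb. At 6m the order was Grm4 (13.1), Grm2 (9.67), Grm3 (3.00), Grm7 (1.59), Grm8 (0.412) and Grm5 (0.156), and no neighbours in it had overlapping ranges over the 4 libraries. At 24m the order was Grm4 (16.7), Grm2 (8.96), Grm3 (4.98), Grm7 (3.55), Grm5 (1.80) and Grm8 (0.635). There the ranges over animals of Grm3 and Grm7, of Grm7 and Grm5, and of Grm5 and Grm8 overlapped, but within each aged library these 4 genes stood in the same order. The change of place is that Grm5, last at 6m, had a mean above that of Grm8 at 24m. Canonical transcript lengths gave the same order at both ages. The summed RPKM of the 6 genes was 28 ± 1.76 at 6m and 36.7 ± 3.15 at 24m (SD, n = 4 each).

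Taking each gene as a share of that sum in its own library removes the scaling between libraries. The share of Grm5 was 0.425%, 0.856%, 0.725% and 0.271% at 6m and 1.49%, 4.94%, 5.16% and 7.51% at 24m. Its mean went from 0.569% to 4.77% with no overlap between the ages (exact two-sided permutation p = 0.0286, the smallest that 4 against 4 libraries can give). The share of Grm2 was 31.2%, 36.6%, 36.4% and 34.4% at 6m and 27.9%, 24.1%, 23.8% and 22.6% at 24m. It fell from a mean of 34.6% to 24.6%, also without overlap (exact permutation p = 0.0286), although its CPM was nearly level. Grm4 held the largest share at both ages, 46.7% and 45.8% (exact permutation p = 0.8). Grm3 made up 10.8% and 13.5% (exact permutation p = 0.0571), Grm7 5.76% and 9.59% (0.0571) and Grm8 1.49% and 1.70% (0.514). Group II as a whole went from 45.4% to 38.1% (exact permutation p = 0.0286) and group III from 54.0% to 57.1% (0.257). The shares of a library sum to its whole, so they are not independent of each other.

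**Figure D3:**
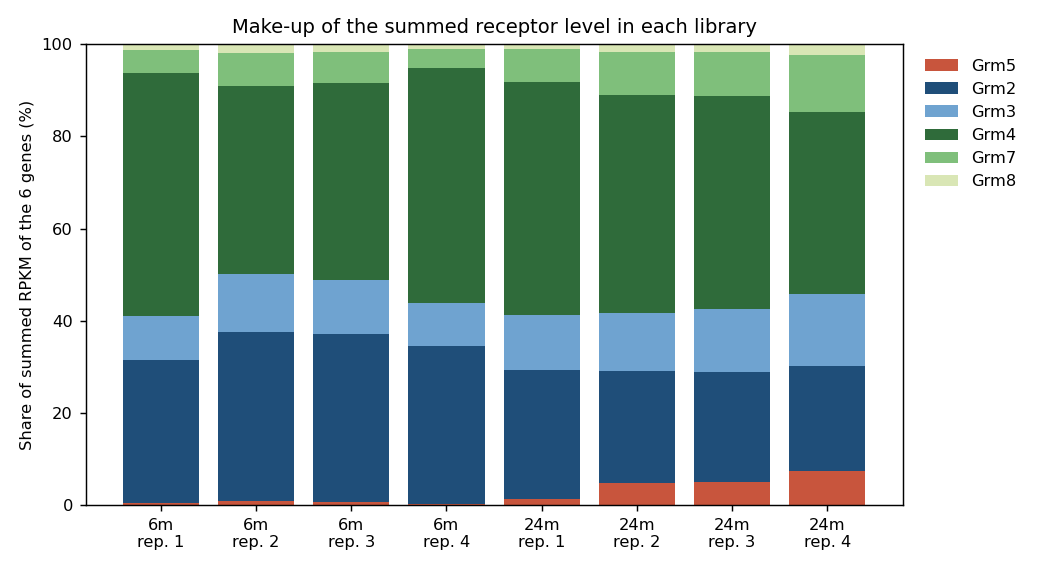
Stacked bars of the share of each receptor gene in the summed RPKM of the 6 genes, in percent, for each of the 8 libraries. Grm4 and Grm2 make up most of every library, and the share of Grm5 is 0.271% to 0.856% at 6m and 1.49% to 7.51% at 24m.

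Ratios of counts between 2 genes within a library were compared between the ages for all 15 pairs, by exact two-sided permutation tests with Benjamini-Hochberg adjustment over the 15. For 10 pairs the ages did not overlap (exact p = 0.0286 and adjusted p = 0.0429 for each). Grm5 rose against each of the other genes, by 3.49 against Grm2, 3.02 against Grm4, 2.81 against Grm8, 2.66 against Grm3 and 2.25 against Grm7 (differences of mean log2 ratios). Within group II the ratio of Grm3 to Grm2 rose by 0.83, from -1.76 ± 0.15 to -0.93 ± 0.29 (SD, n = 4 each). Against Grm2, Grm7 rose by 1.24 and Grm4 by 0.47. Within group III Grm7 rose by 0.56 against Grm8, and it rose by 0.41 against Grm3. The ages overlapped for Grm8 against Grm2 (0.68, exact permutation p = 0.114, adjusted p = 0.143), Grm7 against Grm4 (0.77, 0.114 and 0.143), Grm3 against Grm4 (0.35, 0.257 and 0.297), Grm3 against Grm8 (0.14, 0.514 and 0.551) and Grm8 against Grm4 (0.21, 0.629 and 0.629). Without 24m replicate 1 the ages were apart for 12 pairs. Pairs share genes, so the 15 ratios are not independent of each other. They also keep the trends of the libraries with exon length and GC content, since no offset was applied to them.

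The genes also differed in how they varied between animals of the same age. Over the 8 libraries the log2 CPM of Grm3, Grm5, Grm7 and Grm8 correlated at r = 0.87 to 0.996 for each pair. Deviations from the age means gave 0.945 to 0.99, so libraries low in one of these genes for their age were low in the others. Grm4 went the other way within an age (r = -0.55 to -0.43 with those 4 genes), and Grm2 had r of -0.24 to -0.06 with them. These are descriptions over 8 libraries that share depth, GC and length trends, given without a test.

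**Figure D4:**
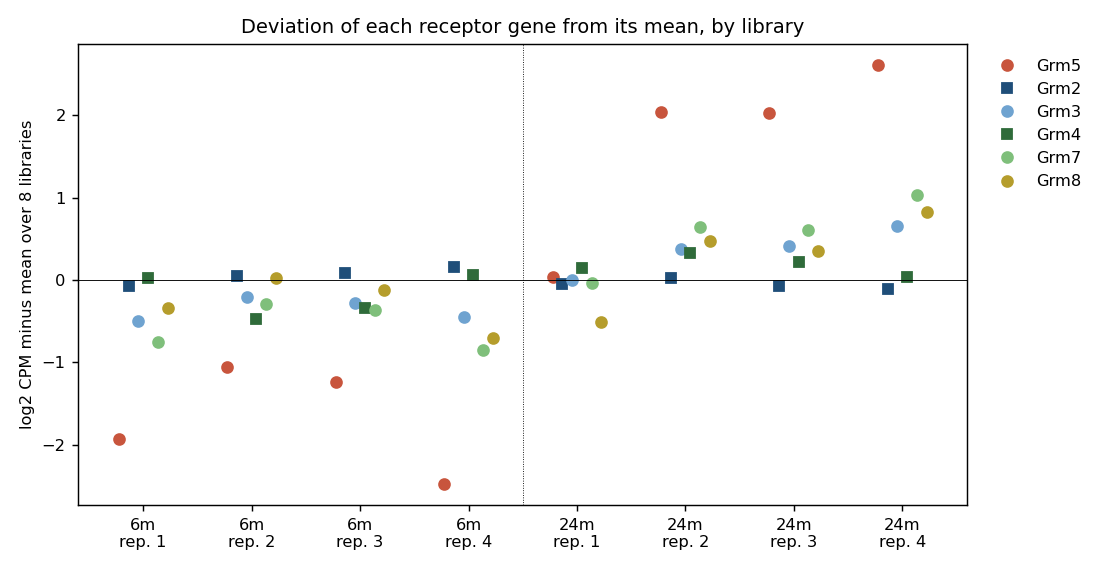
Log2 CPM of each receptor gene minus its mean over the 8 libraries, with 1 column of points per library (6m left of the dotted line, 24m right). Grm5, Grm3, Grm7 and Grm8 lie lower in 24m replicate 1 than in the other 24m libraries, while Grm2 stays near 0 throughout.

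The 6 genes also differed in how many other genes had a like pattern over the 8 libraries. This r takes in the difference between the ages as well as the spread within them, and 25.3% of all genes tested were called higher at 24m. Genes with clone or predicted names or no annotation were left out, as were the 6 receptor genes and genes overlapping the receptor compared. Of the 13532 genes left with a mean of at least 1 CPM, 3723 had r above 0.9 with Grm5. The count was 3721 for Grm3, 3656 for Grm7, 1076 for Grm8, 32 for Grm4 and 10 for Grm2. The 3 genes most like Grm5 were Dipk2a (r = 0.9991), Vps13c (0.999) and Tnks2 (0.9989). For Grm3 they were Cep120 (0.9989), D5Ertd579e (0.9985) and Prkca (0.9985), and for Grm7 Caprin1 (0.9991), Csrnp3 (0.9986) and Tle4 (0.9985). For Grm8 they were Gpr85 (0.996), Coch (0.9959) and Macf1 (0.9942). For Grm4 they were Vwa7 (0.9798), Capn15 (0.9756) and Plcb3 (0.9749), the last a phospholipase C of the Gq pathway. For Grm2 they were Rexo4 (0.9749), Stab2 (0.94) and Dph2 (0.9371). With so many genes alike, the ones leading each list are separated by small differences in r.

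Downstream of group I receptors, 8 of 14 Gq pathway genes were higher at 24m, none was lower and 6 were not called. The median log2 fold change was 0.73, beside -0.0034 over all genes, and 57.1% were called, beside 43.6%. Gnaq, the alpha subunit of Gq itself, was at 4.88, 7.65, 6.87 and 5.02 CPM at 6m and at 15.6, 24, 25.3 and 35.2 CPM at 24m. It rose by 2.03 ± 0.25 (log2, adjusted p 0.00016 in edgeR's test). Prkca, a protein kinase C that the pathway activates, went from 6.26 ± 1.48 to 26.7 ± 13.1 CPM (SD, n = 4 each), a log2 fold change of 2.09 ± 0.34 with an adjusted p of 0.000701 in edgeR's test. With no threshold on the fold 13 of the 14 genes passed, 12 higher and 1 lower, beside 62.6% of all genes (32.7% higher). With an offset for exon length 6 were called higher and 2 lower, beside 38.5% of all genes called (21.4% higher). After quantile normalization 8 were called higher and 1 lower, beside 44.6% of all genes called (21.4% higher).

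Downstream of group II and III receptors, 9 of 14 Gi/o pathway genes were higher, none was lower and 5 were not called (64.3% called, beside 43.6% of all genes, median 1.07). With an offset for exon length 9 were again called higher, beside 21.4% of all genes, and the median was 0.72. Gnao1, the alpha subunit of Go, was at 121, 148, 141 and 124 CPM at 6m and at 220, 306, 324 and 362 CPM at 24m, with a log2 fold change of 1.18 ± 0.15 and an adjusted p of 0.000176 in edgeR's test. Adcy1, a calcium-stimulated adenylyl cyclase, had a log2 fold change close in size to that of Grm5. It was at 7.82, 10.5, 8.84 and 8.32 CPM at 6m and at 42.5, 94.8, 108 and 154 CPM at 24m, and rose by 3.49 ± 0.34 (adjusted p 5.86e-05 in edgeR's test). Prkacb, a catalytic subunit of the kinase that cyclic AMP activates, went from 18.3 ± 5.7 to 98.0 ± 30.03 CPM (SD, n = 4 each) and rose by 2.42 ± 0.28 (adjusted p 0.000118 in edgeR's test).

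Among scaffolds and binding partners 8 of 16 were higher, none was lower and 8 were not called (50% called, median 0.53), a share near the 43.6% of all genes. With an offset for exon length 8 were higher and 1 was lower, beside 38.5% of all genes called (21.4% higher). Homer proteins tether group I receptors at the postsynaptic density. Homer1 was at 5.36, 7.96, 8.33 and 4.51 CPM at 6m and 6.99, 15.7, 14.4 and 17.7 CPM at 24m, and rose by 1.07 ± 0.29 (adjusted p 0.0103 in edgeR's test), with 24m replicate 1 inside the young range. Homer2 (0.09 ± 0.14, adjusted p 0.596 in edgeR's test) and Homer3 (0.35 ± 0.20, adjusted p 0.15) were not called. Elfn proteins bind group III receptors across the synapse. Elfn2 rose by 1.61 ± 0.16 (adjusted p 6.01e-05 in edgeR's test), from 15.7 ± 0.733 to 48.1 ± 10.5 CPM, and Elfn1 by 0.82 ± 0.24 (adjusted p 0.0147), from 12.1 ± 1.85 to 21.4 ± 6.91 CPM, with overlapping ages (SD, n = 4 each). The postsynaptic scaffolds Shank1 and Shank2, which bind Homer, rose by 2.21 ± 0.23 (adjusted p 7e-05 in edgeR's test) and 1.83 ± 0.26 (adjusted p 0.000354).

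Genes that switch the receptors or their G proteins off had the lowest median of the 5 lists: 4 of 14 were higher, 1 was lower and 9 were not called (35.7% called, beside 43.6% of all genes, median 0.21). Arrb1, a beta-arrestin, went from 25.6 ± 2.1 to 94.4 ± 10.5 CPM (SD, n = 4 each) and rose by 1.88 ± 0.11 (adjusted p 1.26e-05 in edgeR's test). Rgs8, which speeds G protein deactivation, rose by 1.68 ± 0.10 (adjusted p 1.36e-05). Grk4, a receptor kinase of low level here, fell from 1.43 ± 0.268 to 0.854 ± 0.0783 CPM (SD, n = 4 each), a log2 fold change of -0.74 ± 0.18 with an adjusted p of 0.00547 in edgeR's test.

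On the side of the ligand, 8 of 13 genes of glutamate supply and clearance were higher, none was lower and 5 were not called (61.5% called, beside 43.6% of all genes, median 0.62). The astrocyte glutamate transporters Slc1a3 and Slc1a2 rose by 1.89 ± 0.21 (adjusted p 0.000106 in edgeR's test) and 1.15 ± 0.25 (adjusted p 0.00282). Slc1a2 was at 38.4, 40.9, 43.7 and 46.8 CPM at 6m and at 51.4, 90.4, 94.7 and 141 CPM at 24m, so the ages were apart. Folh1, whose product releases glutamate from the mGlu3 ligand N-acetylaspartylglutamate, was at 2.30 ± 0.268 and 3.07 ± 0.675 CPM (SD, n = 4 each) and was not called (0.42 ± 0.18, adjusted p 0.0663 in edgeR's test).

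**Figure D5:**
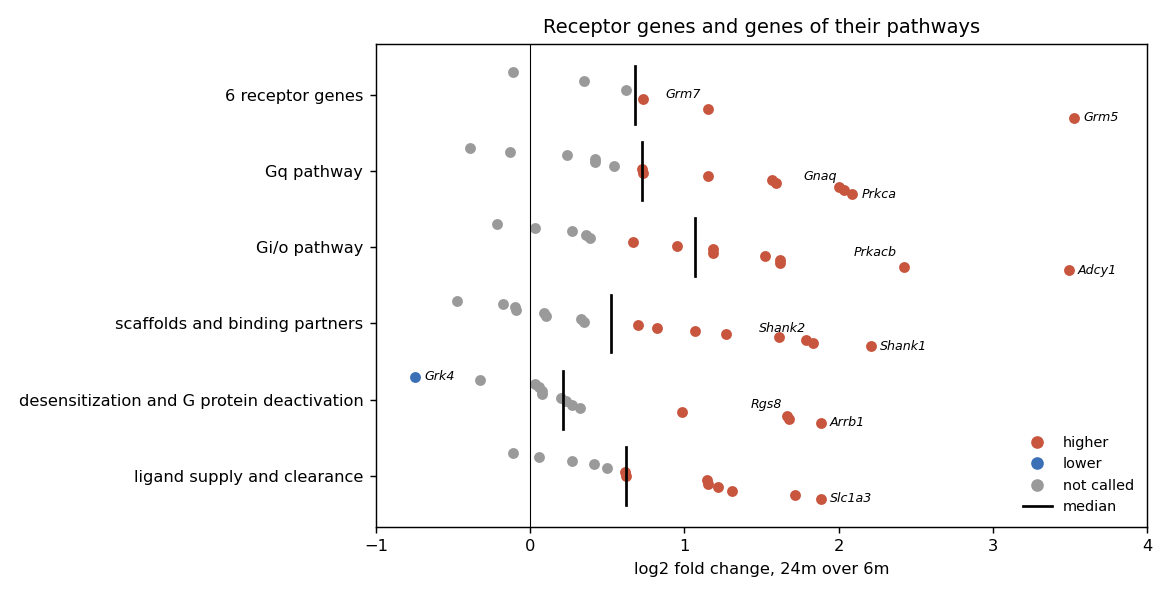
Log2 fold change at 24m against 6m of each gene tested in the 5 pathway lists and of the 6 receptor genes, 1 point per gene coloured by its call, with a bar at the median of each row. Medians are 0.73 for Gq, 1.07 for Gi/o, 0.53 for scaffolds, 0.21 for desensitization, 0.62 for ligand supply and 0.68 for the receptor genes.

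Markers of other cells of the brain give the setting of these values. Their counts stand beside 43.6% of all genes called, 25.3% higher and 18.3% lower. Among oligodendrocyte precursor markers 4 of 8 were higher and 1 was lower (median 0.68), with sums of 217 to 275 CPM at 6m and 294 to 340 CPM at 24m. Dentate granule cell markers counted 2 of 8 higher (median 0.47), with sums of 116 to 128 CPM and 140 to 162 CPM, and microglia markers 2 of 10 higher (median 0.11), with sums of 692 to 770 CPM and 643 to 981 CPM. Choroid plexus markers counted 2 of 8 higher and 1 lower (median -0.05), with sums of 2030 to 3550 CPM and 1200 to 2580 CPM. All 5 blood markers were lower (median -1.42), with sums of 5430 to 7600 CPM at 6m and 1240 to 4160 CPM at 24m, the highest aged value being that of 24m replicate 1. Mitochondrial transcripts made up 5.26% to 6.52% of counts at 6m and 3.18% to 3.69% at 24m. The part of these differences in the receptor results was not tested.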

How the data were processed

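The authors trimmed reads with Trim Galore 0.4.11 and aligned them with HISAT2 2.1.0 (versions from the submitters' processing notes) to GRCm39. They then counted reads per Ensembl gene with featureCounts and deposited whole-number counts, not normalized and not pooled. The libraries came from a directional poly(A) kit. Whether counting used the strand or multimapping reads is not given in the sources used here, so values of genes that overlap others or have close paralogs are less certain.

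The 6 receptor genes and all gene lists were chosen with earlier results of these data known. Of 22430 genes, 22281 matched the GENCODE annotation used for positions and lengths, and 16730 had more than 5 counts in at least 4 libraries. Ages were compared with edgeR 4.0.16 (quasi-likelihood test, TMM factors, R 4.3.3) on all 8 libraries, with p-values adjusted by Benjamini-Hochberg over all genes tested. They measure the spread between animals, 4 per age. Shares and ratios were tested by exact two-sided permutation over the 70 assignments. Genes named besides the receptors were, in each list, up to 2 called higher and 2 called lower of largest change with a mean of at least 1 CPM, direct partners set by name, and the 3 genes of most similar pattern per receptor. Some genes that these rules would name are not reported here. Alternatives were DESeq2 1.42.0 (also after quantile normalization), limma 3.58.1, other scalings and filters, length and GC offsets, a replicate block, no fold threshold and leaving out each library. Libraries of one age differed by more than sampling noise (chi-square per degree of freedom 8.18 or more).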

Additional observations from a re-analysis of the deposited data

Results flagged for a closer look

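Among 48 sets of 4 libraries examined (the receptor genes and the genes named from the pathway lists, at each age), 3 held a library far from the others by Dixon's test, and chance alone gives about 1 in 20. Arrb1 was at 22.4 CPM in 6m replicate 1, against 26.3 to 26.9 CPM in the other young libraries. Elfn1 was at 9.36 CPM in 6m replicate 1, against 12.8 to 13.5 CPM. Elfn2 was at 32.5 CPM in 24m replicate 1, against 51.9 to 54.0 CPM in the other aged libraries. No receptor gene was among them.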

How the results depend on the processing

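Of 285 values recomputed under an alternative, 275 kept their direction and call or, for a count, stayed within 1.5 times it. The count of receptor genes called, 3, was 2 with a length offset. It was 4 with library totals alone, with DESeq2, without 24m replicate 1 and with no fold threshold. All of these were higher. Over all genes tested, 21.4% were called higher with a length offset, 32.6% with library totals alone and 25.1% with DESeq2. Without 24m replicate 1 it was 28.2%, with no fold threshold 32.7%, and in the main fit 25.3%. Grm2 changed sign with library totals alone (0.11, adjusted p 0.231) and with a GC offset (0.061, adjusted p 0.551). Grm3 fell below the fold threshold with a length offset (0.54), a GC offset (0.56) and the replicate block with a length offset (0.53). Grm4 passed both thresholds with a GC offset (0.60). Grm8 passed with library totals alone (0.85) and DESeq2 (0.62, adjusted p 0.0431), and leaving out one library at a time gave 0.43 to 0.85. It was lower with a length offset (0.22), a GC offset (0.39), quantile-normalized counts (0.26, adjusted p 0.329) and the replicate block with a length offset (0.19). In the fits that left out a library, values were 3.21 to 3.86 for Grm5 and 0.63 to 0.86 for Grm3. In those fits Grm7 was at 0.98 to 1.34 and Grm4 at 0.26 to 0.43. The Gq pathway count went from 8 to 13 of 14 with no fold threshold, while the share of all genes called went from 43.6% to 62.6%. Beyond what the offsets and omitted libraries change by construction, the cause was not tested. With library totals alone 75.7% of called genes were higher, against 58.1% with TMM and 47.9% with quantile-normalized counts, and the median of all genes moved to 0.21. Counts of called genes without one library ran from 6440 to 8265. Grm5, of which 58 to 170 reads were counted per library at 6m, had a coefficient of variation of 42.3% at 6m and 54.8% at 24m.

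The sample titles name no pairing by replicate number. Deviations of same-numbered libraries from their age means correlated at 0.271, 0.143, 0.0778 and -0.348. Those of differently numbered libraries ran from -0.403 to 0.377, so these correlations cannot decide whether the numbers pair the samples. With the replicate block 7242 genes were called instead of 7295, Grm5 was at 3.35 and Grm4 had an adjusted p of 0.0693.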
